A study of Mus musculus with 4 samples.

Results

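Glutathione S-transferases join the tripeptide glutathione to reactive and lipid-derived molecules, so that the conjugates can be exported and broken down. The soluble enzymes fall into classes named pi (Gstp), mu (Gstm), alpha (Gsta), theta (Gstt) and omega (Gsto), and a separate membrane-bound group includes Mgst1. In the lung they are known for handling oxidants and inhaled electrophiles, and club cells of the airway are a well-known site of several of them. The 10 rows described here are Gstp1, Gstp1_1, Gstp2, Gstp3, Gstm1, Gsta3, Gsta4, Gsto1, Gstt1 and Mgst1, of 40092 gene rows in the count table. Gstp1_1 is a second copy of Gstp1, placed on a fix patch, a corrected stretch of genome that is kept as a separate sequence beside the chromosome. The family was chosen by the measured difference between genotypes at Gstp1_1, so the differences of the 10 rows between genotypes are described without a test. Of the 10 rows, 7 had enough counts to enter the fit across all genes. Gstp1, Gstp2 and Gstp3 on the main chromosome did not.

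The libraries are bulk RNA-seq of alveolar type II (AT2) cells, the surfactant-secreting progenitors of the alveolus, sorted as GFP+ cells from mouse lung on day 14 after bleomycin, a drug that injures the lung epithelium. The 2 Ctrl libraries came from Alkbh5 flox/+ animals and the 2 A5-CKO libraries from Alkbh5 flox/flox littermates, all with Sftpc-CreERT2 and Rosa26-mTmG. The labels do not say whether a library is 1 mouse or a pool. Both genotypes received tamoxifen, which activates Cre in cells using the Sftpc promoter, and both carried a reporter that turns recombined cells green. Controls therefore also carried 1 floxed allele of Alkbh5, the gene of an RNA m6A demethylase. Reads over the whole gene are counted, beyond the floxed first exon too. Libraries held 18144865 to 20811757 counts. CPM are counts normalized for library size with TMM factors, and values given in fours follow the order Ctrl 1, Ctrl 2, A5-CKO 1, A5-CKO 2. The scaling factors were lower in Ctrl (0.933 and 0.860) than in A5-CKO (1.11 and 1.13), and the median log2 fold change (log2FC, A5-CKO over Ctrl) of all genes tested moved, with total counts only, from -0.02 to 0.30. Alkbh5 had 81.7 and 152 CPM in Ctrl against 19.3 and 36.6 in A5-CKO (log2FC -2.06, standard error, SE, 0.46), with an adjusted p = 0.528 by the quasi-likelihood test of edgeR and Benjamini-Hochberg adjustment. DESeq2 with default filtering gave an adjusted p = 0.0224. An exact permutation of 2 against 2 libraries has 0.333 as its smallest two-sided p.

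The AT2 label was checked against its markers. Sftpc, the surfactant protein that defines AT2 cells, had 15477 and 16371 CPM in Ctrl against 10268 and 7856 in A5-CKO, and the 9 rows of 8 AT2 markers summed to 51569 and 75421 CPM in Ctrl against 39235 and 31908 in A5-CKO. The 8 markers of airway club cells summed to 7702 and 9477 CPM in Ctrl against 4185 and 2767 in A5-CKO. Among the macrophage markers, Adgre1 had 41.9 and 8.61 CPM in Ctrl against 6.79 and 62.8 in A5-CKO, and Mrc1 had 54.5 and 12.3 against 10.5 and 127. Both were high in Ctrl 1 and A5-CKO 2 and low in the other libraries. The sum of 7 mesenchymal markers was also highest there, at 421.5, 155, 96.7 and 1092 CPM, as was that of 6 transitional markers, at 2845, 1160, 1516 and 2961 CPM. Tcf21 and Pdgfra of the mesenchymal list had more CPM in Ctrl 2 than in Ctrl 1. The AT1 markers summed to 1407, 1235, 1065 and 1185 CPM, with Ager at 0.349 CPM or less. Of their rows 3 (Hopx, Cav1 and Clic5) were higher and 1 (Aqp5) lower in both A5-CKO libraries, beside 20.3% and 23.5% of all genes tested. The 6 endothelial markers summed to 127, 202, 89.7 and 197 CPM, with Cldn5 at 0 throughout. In bulk samples, fewer cells of a type and less RNA per cell cannot be told apart.

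The promoters of the pi-class genes are shown because Gstp1_1 carried the largest difference among the members and because near-identical copies limit what its counts can say. Each runs from 250 bases before to 50 bases after the annotated start site, on the minus strand of GRCm38.p6 as given by RefSeq, 5′ to 3′. Capitals mark TGANTCAGC, an AP-1 core (TGANTCA) followed by GC, searched on both strands. The sequences are those of the main chromosome, at chr19:4037863-4038162 for Gstp1, chr19:4042172-4042471 for Gstp2 and chr19:4059398-4059697 for Gstp3.
Gstp1: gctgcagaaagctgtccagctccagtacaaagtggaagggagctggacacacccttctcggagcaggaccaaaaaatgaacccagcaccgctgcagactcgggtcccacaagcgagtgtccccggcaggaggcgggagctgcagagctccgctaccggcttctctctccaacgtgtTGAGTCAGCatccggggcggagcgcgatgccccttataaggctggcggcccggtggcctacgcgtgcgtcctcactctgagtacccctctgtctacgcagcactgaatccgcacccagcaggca
Gstp2: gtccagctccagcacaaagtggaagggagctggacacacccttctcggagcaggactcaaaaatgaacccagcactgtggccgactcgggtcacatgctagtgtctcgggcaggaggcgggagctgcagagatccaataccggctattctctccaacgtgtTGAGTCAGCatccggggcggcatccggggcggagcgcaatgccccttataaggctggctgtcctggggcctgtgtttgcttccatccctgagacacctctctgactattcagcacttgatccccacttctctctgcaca
Gstp3: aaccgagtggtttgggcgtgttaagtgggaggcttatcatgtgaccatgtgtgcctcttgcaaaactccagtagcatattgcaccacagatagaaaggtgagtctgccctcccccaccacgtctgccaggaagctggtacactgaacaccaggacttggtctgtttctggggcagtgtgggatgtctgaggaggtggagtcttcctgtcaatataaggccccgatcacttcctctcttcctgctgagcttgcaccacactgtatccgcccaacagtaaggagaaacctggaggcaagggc

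The Gstp1 and Gstp2 promoters were 87.5% identical over 281 aligned bases, while Gstp3 was 72.2% identical to Gstp1 over 252. TGANTCAGC began at position -74 from the start site in Gstp1 and at -89 in Gstp2, and was not found in this window of Gstp3. Among all 32851 promoter entries of the same length, 1.19% held it. Promoter entries were found for 8 of the 10 rows, in 10 entries. The core of the antioxidant response element, TGACNNNGC, which the stress factor NRF2 binds, was found in 1 entry of Gsta3 and 1 of Mgst1, against 12.4% of all entries. Where its base N is C, TGANTCAGC also fits this core, but in Gstp1 and Gstp2 that base is G. Other forms of NRF2 site were not searched for. AP-1 cores alone were found in 7.81% of all entries and, among the rows here, in Gstp1 and Gstp2 only, inside the longer motif.

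The 3 pi-class genes lie next to each other on chromosome 19, Gstp1 at 4035411 to 4037912, Gstp2 at 4040288 to 4042221 and Gstp3 at 4057470 to 4059605 (GRCm38.p6). Each has 7 exons in its longest GENCODE M21 transcript. Gstp1 and Gstp2 also share much of their mRNA. Of the 772 windows of 50 bases in the Gstp1 transcript, 62.3% occurred unchanged in Gstp2, while none of the 659 windows of Gstp3 occurred in another gene. A read inside a shared window fits both genes, and the patch holds further copies. Under the m6A heading, the study's methods keep uniquely mapped reads and count them per gene to measure expression. Under the RNA-seq heading they name no such filter and end in peak calling. It is therefore uncertain which description applies here and how reads that fit several copies were treated.

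Gstp1, the pi-class transferase best known for conjugating electrophiles, was counted almost wholly on the patch. Gstp1_1 had 28, 40, 1327 and 511 counts. Both A5-CKO libraries were far above both Ctrl libraries, and A5-CKO 1 was well above A5-CKO 2. After scaling this was 1.66 and 2.33 CPM in Ctrl against 60.1 and 21.8 in A5-CKO, a mean of 1.99 ± 0.475 (SD, n = 2) against 41.0 ± 27.0 (SD, n = 2). The log2FC was 4.36 (SE 0.61), or 20.5-fold higher in A5-CKO. It was 3.44 without A5-CKO 1 and 4.88 without A5-CKO 2. This is the value that chose the family, and it is given as a description.

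On the main chromosome the pi-class rows were nearly empty. Gstp1 had 2, 4, 0 and 0 counts. Gstp2 had 12 counts in Ctrl 2 and 0 in the other libraries. Gstp3 had no count in any library, which allows up to 3 counts, or 0.128 to 0.177 CPM, by counting error alone. No fold change was drawn from these rows.

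Gstp2 and Gstp3 also have copies on the patch. Gstp3_1 had 14, 7, 241 and 12 counts. It was high in a single A5-CKO library, the one in which Gstp1_1 was also highest, and the genotypes overlapped (log2FC 3.20, SE 1.32). Gstp2_1 had 13 counts in Ctrl 2, 14 in A5-CKO 1 and 0 in the other libraries. With the 4 pi-class rows of the family added into 1, the sums were 30, 56, 1327 and 511 counts, and the log2FC was 4.02. With the patch copies of Gstp2 and Gstp3 added too, a choice made after seeing the data, the sums were 44, 76, 1582 and 523 counts and the log2FC was 3.74. Both sums were higher in both A5-CKO libraries. In A5-CKO the sums of the 4 rows are the Gstp1_1 counts themselves, so they are no separate evidence. Reads that fit several copies and were not counted are not in the table.

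Other genes on the same patch show how such rows varied. The patch holds 24 rows, each a copy of a gene on chromosome 19, and the main-chromosome copies had at most 18 counts in a library. Of the 24 rows, 11 had enough counts to be tested, and in 6 of the 11 the highest count was at least 5 times the lowest, with counts under 3 set to 3. Cdk2ap2_1 had 35, 179, 14 and 34 counts, and Pold4_1, which was not tested, had 6, 8, 0 and 188. Single libraries thus stood apart in several patch rows, in both genotypes. The median SD of log2 CPM between libraries of 1 genotype was 1.07 over the patch rows tested and free of zeros, 0.77 for Gstp1_1 and 0.40 over all genes tested. Log2FC values on the patch ranged from -2.57 for Cdk2ap2_1 to 4.36 for Gstp1_1, and Gstp1_1 was also the highest of the 28 fix-patch rows tested anywhere in the genome. Gstp1_1 held 3.56% and 4.78% of the patch's counts in Ctrl, and 63.6% and 28.2% in A5-CKO. The remaining non-Gstp rows of the patch summed to 745, 777, 505 and 1289 counts.

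**Figure D1:**
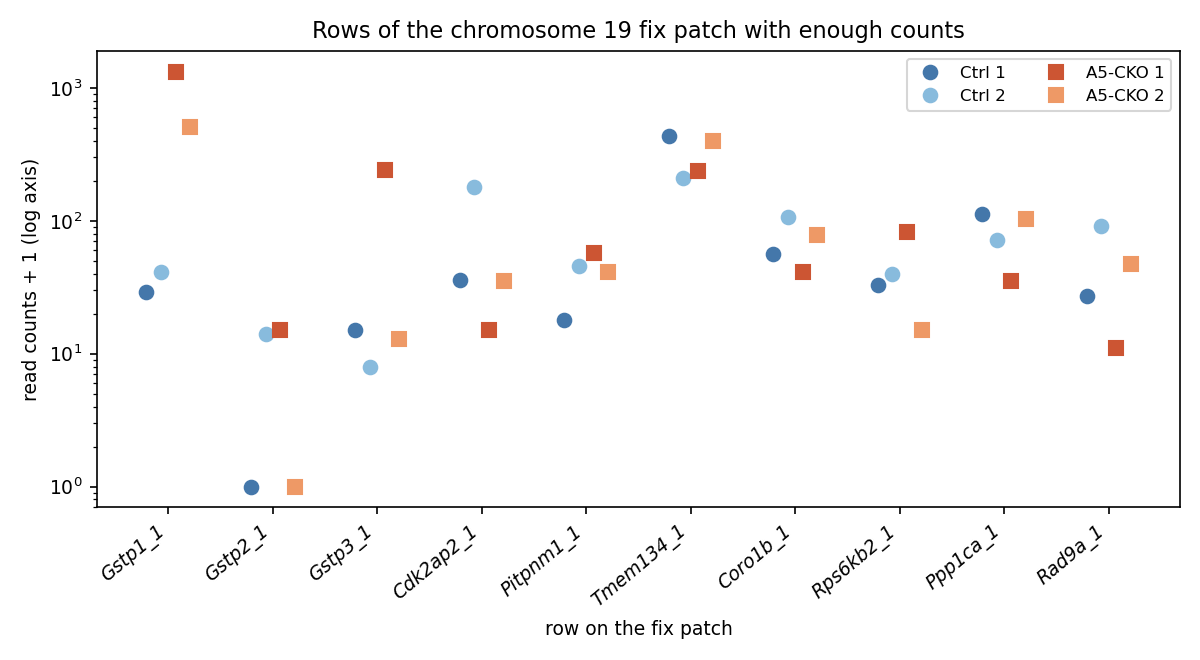
Read counts plus 1 on a log axis for 10 of the 11 tested rows of the chromosome 19 fix patch that holds Gstp1_1, with 1 point per library. Gstp1_1 lies at 28 and 40 counts in Ctrl (circles) and 1327 and 511 in A5-CKO (squares), while Gstp3_1 and Cdk2ap2_1 are high in 1 library.

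Genes beside the cluster but outside the patch were counted on the chromosome as usual. Ndufv1, a mitochondrial complex I subunit that ends at 4012755, had 2616 and 2551 counts in Ctrl against 2068 and 2591 in A5-CKO, with a log2FC of -0.57 (SE 0.29). Acy3 (-0.63) and Nudt8 (-0.85) were likewise lower in both A5-CKO libraries, Doc2g (0.60) overlapped and Tbx10 had no count. On the other side, the 4 nearest genes with a row, Gm42060, Cabp2, Cdk2ap2 and Pitpnm1, all have a patch copy and had 0 counts on the chromosome in every library. Genes with a profile over the 4 libraries closest to Gstp1_1 were Gm13351, LOC115487678, Gm30992, Gm52510 and Gm39308, with root mean square differences of 0.46 to 0.56 in centred log2 CPM. These are low rows, with at most 3 counts in a Ctrl library and 12 to 66 in an A5-CKO library.

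The other members lie elsewhere in the genome and were counted on their own rows. Of the 7 members tested, 5 had both A5-CKO libraries below both Ctrl ones, as did 23.5% of all 16661 genes tested, and 1, Gstp1_1, had both above, as did 20.3%. Gsto1 overlapped. The median log2FC of the 7 was -0.72, against -0.02 over all genes tested, and -0.42 against 0.30 with total counts only. There 4 of the 5 stayed separated, and 10.1% of all genes were lower in both. Since this contrast prompted the choice, nothing is read from the shares. Without A5-CKO 2 the median of the 7 was -0.54 and without A5-CKO 1 it was -0.85. With a correction for GC content and transcript length, 3 were lower in both, as were 25.1% of the 15264 genes in that fit. The median relative to all genes was then -0.49 rather than -0.71.

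Gstm1, the main mu-class enzyme here, is on chromosome 3 from 108012250 to 108017973. It had 155 and 183 CPM in Ctrl against 86.1 and 60.7 in A5-CKO, from 2620, 3142, 1902 and 1419 counts. The genotypes were separated, and the log2FC was -1.20 (SE 0.32), or 2.30-fold lower in A5-CKO. It was -0.88 with total counts only and -0.90 after correcting for GC content and length. Of its windows of 50 bases, 23.1% occurred in another annotated gene, most of them in the pseudogene Gstm2-ps1. How such reads were treated is likewise uncertain.

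Mgst1, a membrane-bound transferase and peroxidase of the endoplasmic reticulum and outer mitochondrial membrane, is on chromosome 6 from 138140527 to 138156755. It had 594 and 558 CPM in Ctrl, a mean of 576 ± 25.6 (SD, n = 2), and 370 and 323 in A5-CKO, a mean of 346 ± 33.4 (SD, n = 2). The libraries of a genotype lay closer together than for any other tested member (SD of log2 CPM 0.11). The log2FC was -0.73 (SE 0.32), and it ran from -0.85 to -0.63 over the fits that omit a library. With total counts only it was -0.42. None of its windows of 50 bases occurred in another gene.

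Gstt1, a theta-class enzyme active on small halogenated compounds, is on chromosome 10 from 75783813 to 75798584. It had 244 and 239 CPM in Ctrl against 166 and 86.8 in A5-CKO. The Ctrl libraries were nearly equal and A5-CKO 2 was the lowest. The log2FC was -0.93 (SE 0.38), -1.49 without A5-CKO 1 and -0.57 without A5-CKO 2.

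The alpha-class members were Gsta4 and Gsta3. Gsta4, known for conjugating the lipid peroxidation product 4-hydroxynonenal, is on chromosome 9 from 78191966 to 78209349. It had 135 and 154 CPM in Ctrl against 102 and 82.0 in A5-CKO, a log2FC of -0.66 (SE 0.30), or -0.34 with total counts only. Gsta3, on chromosome 1 from 21240565 to 21265575, had 84.1 and 52.8 CPM in Ctrl against 48.3 and 34.6 in A5-CKO. Gsta3, which conjugates aflatoxin epoxide in the mouse, only just separated the genotypes, at 52.8 in Ctrl 2 and 48.3 in A5-CKO 1. The log2FC was -0.72 (SE 0.35), and it was -0.30 without Ctrl 1 and -1.07 without Ctrl 2. With total counts only it was -0.42 and the genotypes overlapped.

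Gsto1, the omega-class enzyme that reduces rather than conjugates many of its substrates, followed another order. It is on chromosome 19 from 47854973 to 47864790, far from the pi-class cluster and outside the patch. It had 48.8 and 21.9 CPM in Ctrl against 30.1 and 78.3 in A5-CKO, so that Ctrl 1 and A5-CKO 2 were high and the genotypes overlapped. The log2FC was 0.62 (SE 0.56) and turned to -0.26 without A5-CKO 2. Without Ctrl 2 it was 0.12 and without Ctrl 1 it was 1.38. Adgre1, Mrc1, Marco, Cd68, Chil3 and Ear2 of the macrophage markers were high in the same 2 libraries, as were the mesenchymal and transitional sums. Of the 8 macrophage markers the other 2, Lyz2 and Cd74, were lower in both A5-CKO libraries. None was higher in both, beside 23.5% (lower) and 20.3% (higher) of all genes tested. Their sums of 18608 and 19888 CPM in Ctrl against 12463 and 11219 in A5-CKO rested mostly on Lyz2 and Cd74. The part of these markers in Gsto1 was not tested.

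**Figure D2:**
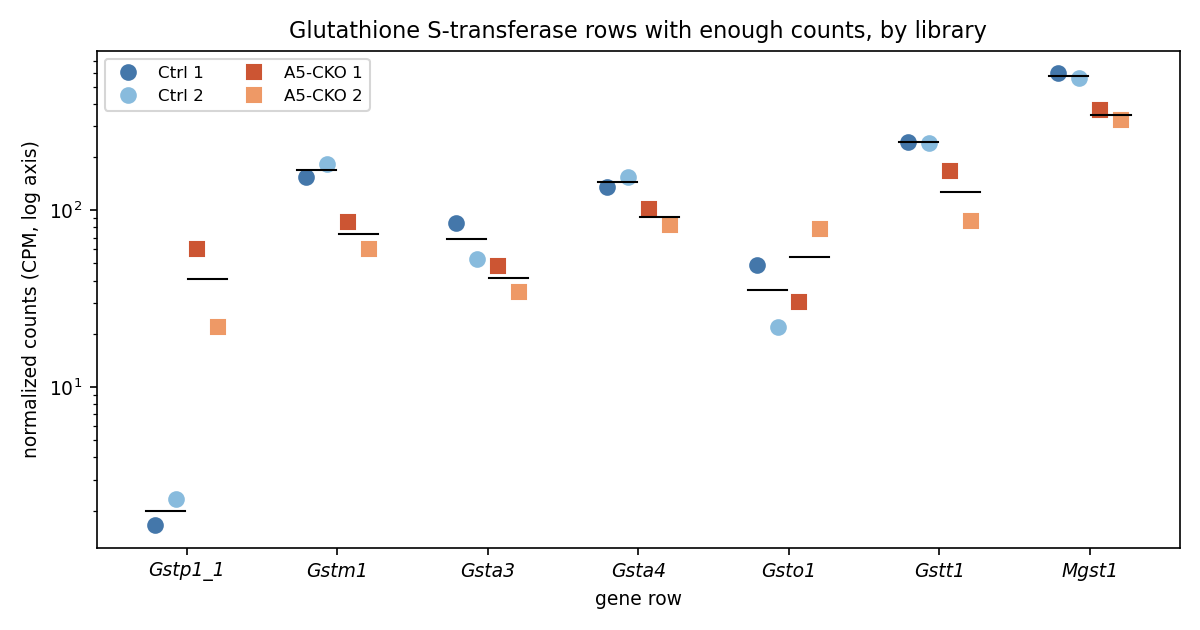
Normalized counts (CPM) on a log axis for the 7 tested members, with 1 point per library and a line at the mean of each genotype (n = 2). Gstm1, Gsta3, Gsta4, Gstt1 and Mgst1 lie lower in both A5-CKO libraries (squares), Gstp1_1 lies higher in both, and Gsto1 is high in Ctrl 1 and A5-CKO 2.

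The summed AT2 and club markers given above were, like the 5 lower members, lower in both A5-CKO libraries, with 6 of 9 AT2 rows and 4 of 8 club markers lower in both and 1 club marker higher. The AT1 list had 3 rows higher and 1 lower, and the transitional list none in either direction. These marker counts were taken with TMM factors only, under which 23.5% of all genes tested were lower and 20.3% higher in both. Cbr2, a club marker, had 4681 and 6611 CPM in Ctrl against 2084 and 1239 in A5-CKO. Scgb1a1, the secretory protein that defines club cells, had 2262 and 1936 CPM against 1518 and 1012. The part of these markers in the members' values was not tested.

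Levels were compared between genes per kilobase of the longest annotated transcript (CPM/kb). Mgst1 led in all 4 libraries, with 509 and 478 CPM/kb in Ctrl against 317 and 276 in A5-CKO. In Ctrl the order was then Gstt1 (221 and 216 CPM/kb), Gsta4 (138 and 158) and Gstm1 (120 and 142), where the last 2 overlapped. In A5-CKO, Gstt1 (150 and 78.6) overlapped Gsta4 (104 and 83.9), and Gstm1 had 66.8 and 47.1 CPM/kb. Gsto1 ranged from 18.5 to 66.2 CPM/kb over the 4 libraries and Gsta3 from 12.4 to 30.1. The longest transcript of Gsta3 has a single exon, and over its longest protein-coding transcript, of 1457 bases, its range was 23.8 to 57.8 CPM/kb. On either length Gsta3 and Gsto1 overlapped. The relative Gstk1 also has a shorter longest protein-coding transcript, of 930 bases. Over that length it had 121 and 109 CPM/kb in Ctrl, and 58.6 and 62.1 in A5-CKO. Gstk1 then overlapped Gstm1 in both genotypes, so the place of Gstm1 holds for the longest transcript only. Gstp1_1 had 2.02 and 2.83 CPM/kb in Ctrl, and 73.2 and 26.6 in A5-CKO, which put it between the 20th and the 4th place among 32 transferase rows. Of the windows of 50 bases in Gstp1, 62.3% occurred in Gstp2, against 0% shared for Mgst1 and Gstt1. How reads that fit several copies were treated is uncertain. The level and place of Gstp1_1 may therefore not be comparable with those of rows without shared windows.

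**Figure D3:**
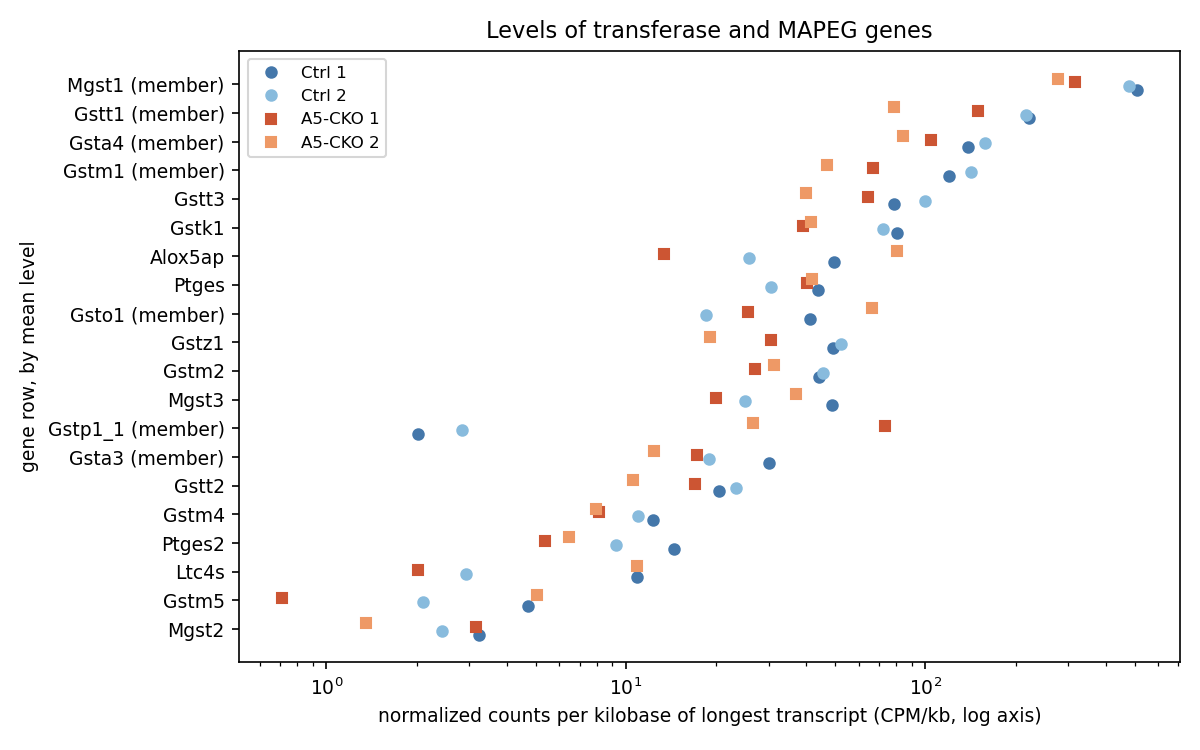
Levels per kilobase of longest transcript (CPM/kb, log axis) of the 20 highest transferase rows, ordered by their mean, with 1 point per library (circles Ctrl, squares A5-CKO). Mgst1 leads in all 4 libraries, and Gstp1_1 spans 2.02 to 73.2 CPM/kb, where the treatment of reads that fit several copies is uncertain.

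Other transferases and their membrane-bound relatives were read from the same fit. Of the 24 genes listed 22 had a row and 18 were tested, and none passed the adjusted threshold of 0.05 in edgeR (0 of 16661 genes, 0%) or in DESeq2 (0.385% of the 15306 genes given an adjusted p). By edgeR's quasi-likelihood test 3 had an unadjusted p under 0.05, all lower in A5-CKO (9.18% of all genes tested had one, in either direction). In 7 of the 18 (38.9%) both A5-CKO libraries were lower, against 23.5% of all genes tested, and in 3 (16.7%) both were higher, against 20.3%. The median log2FC was -0.35. It was -0.05 with total counts only, where again 7 (38.9%) were lower in both and 4 (22.2%) higher, against 10.1% and 34.8% of all genes. It was 0.08 without Ctrl 1, -0.64 without Ctrl 2, -0.16 without A5-CKO 1 and -0.66 without A5-CKO 2.

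Those 3 genes were Gstk1, Gstz1 and Ptges2. Gstk1, the kappa-class enzyme of mitochondria and peroxisomes, had 1904 and 1735 counts in Ctrl against 1204 and 1351 in A5-CKO (log2FC -0.93, SE 0.28, adjusted p = 0.528 from edgeR). Gstz1, which isomerizes maleylacetoacetate in tyrosine breakdown, had 2520, 2720, 2043 and 1354 counts (log2FC -1.03, SE 0.33). Ptges2, linked to prostaglandin E2 synthesis, had 1221, 790, 590 and 750 counts (log2FC -1.01, SE 0.35), and its log2FC was -0.58 without Ctrl 1. The theta-class neighbours of Gstt1 had log2FC values of -0.77 (Gstt3) and -0.67 (Gstt2), and the mu-class neighbours of Gstm1 had -0.62 (Gstm2) and -0.53 (Gstm4). All 4 neighbours were lower in both A5-CKO libraries. Gstt3 had -1.16 without A5-CKO 1 and -0.50 without A5-CKO 2, and Gstt2 had -1.06 and -0.40.

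Relatives with low or uneven values were of another kind. Gsto2, the omega-class partner of Gsto1, had 6 and 8 counts in Ctrl against 35 and 20 in A5-CKO, a log2FC of 1.56 (SE 0.78) from few reads. Alox5ap, which presents arachidonic acid for leukotriene synthesis in leukocytes, had 1047, 552, 370 and 2360 counts, and Ltc4s, the leukotriene C4 synthase, had 132, 36, 32 and 182. Both were high in the libraries in which Gsto1, Adgre1 and Mrc1 were high. Gstt4 had 1 count in A5-CKO 1 and 0 elsewhere.

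**Figure D4:**
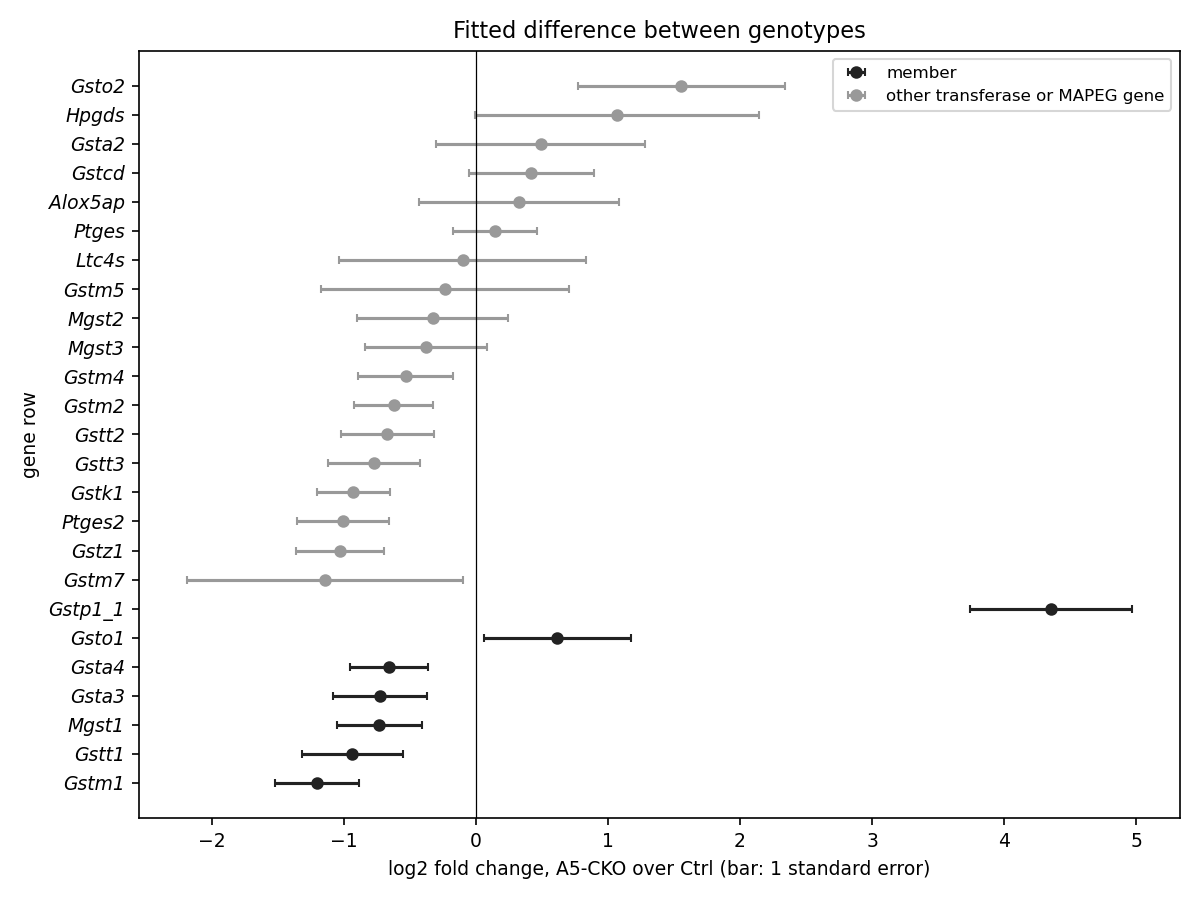
Log2FC of A5-CKO over Ctrl from the edgeR fit with 1 SE, for the 7 tested members (black) and 18 tested relatives (grey). Gstp1_1 lies at 4.36, the 5 lower members lie between -1.20 and -0.66, and the relatives range from -1.14 for Gstm7 to 1.56 for Gsto2.

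Genes that make and recycle glutathione had fitted values mostly below those of all genes, and Gclc lay in the other direction. Of 21 listed, 19 were tested. None passed the adjusted threshold in edgeR or DESeq2, 3 had an unadjusted p under 0.05 by edgeR (9.18% of all genes did), and 10 (52.6%) were lower in both A5-CKO libraries, against 23.5% of all genes. With total counts only, 3 (15.8%) were lower and 4 (21.1%) higher in both, against 10.1% and 34.8% of all genes. Their median log2FC was -0.41, and -0.09 with total counts only, which relative to all genes was -0.39 in both. Without Ctrl 1 it was -0.07. The 3 with an unadjusted p under 0.05 were Dpep1 (-1.75, SE 0.51), Ggt5 (-1.51, SE 0.46) and Oplah (-0.92, SE 0.30). Ggt5 had -0.92 without Ctrl 2. Ggt5, a gamma-glutamyl transferase family enzyme, and Dpep1, a membrane dipeptidase that cleaves cysteinylglycine, act in turn outside the cell, and Oplah returns 5-oxoproline to glutamate. Gclc, the catalytic subunit of the rate-limiting step of glutathione synthesis, had 8799 and 11632 counts in Ctrl against 22963 and 25040 in A5-CKO. With TMM factors no other of the 19 was higher in both A5-CKO libraries. Gclc had a log2FC of 0.82 (SE 0.35), with an adjusted p = 0.528 in edgeR. Its partner Gclm had 566, 369, 476 and 1049 counts, and the genotypes overlapped.

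Enzymes that use glutathione were the most one-sided list in their fitted values. All 15 were tested, and 14 had a negative log2FC, as did 8478 of all 16661 genes tested. In 10 (66.7%) both A5-CKO libraries were lower, against 23.5% of all genes. These counts depended on the scaling, for the list and for all genes. With total counts only, 10 of the 15 were negative, beside 5230 of all 16661 genes. There 2 (13.3%) were lower in both, against 10.1% of all genes. The median was -0.44 with TMM factors and -0.12 with total counts only, or -0.42 relative to all genes in both. It was -0.22 without Ctrl 1, -0.67 without Ctrl 2 and -0.69 without A5-CKO 2. No gene passed the adjusted threshold in edgeR or DESeq2. By edgeR 2 (13.3%) had an unadjusted p under 0.05, against 9.18% of all genes tested. They were Hagh (-0.90, SE 0.29), which ends the glyoxalase pathway, and Gpx8 (-0.77, SE 0.32). Gpx4, which reduces lipid hydroperoxides, had 17365 and 8920 counts in Ctrl against 8094 and 9670 in A5-CKO, with Ctrl 1 far above the rest and a log2FC of -0.99 (SE 0.42). It was -0.35 without Ctrl 1 and -1.44 without Ctrl 2. Gpx2 had a log2FC of 0.01.

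Export and later processing of conjugates gave mixed values. Of 13 names 10 were tested, 5 of them lower (50%) and 1 higher (10%) in both A5-CKO libraries, against 23.5% and 20.3% of all genes. With total counts only, 3 (30%) were lower and 2 (20%) higher, against 10.1% and 34.8%. The list had a median log2FC of -0.20 (0.12 with total counts only and -0.55 without A5-CKO 2) and no gene past the adjusted threshold in edgeR or DESeq2. Kyat3, a cysteine conjugate beta-lyase, had 258, 207, 140 and 128 counts (log2FC -1.21, SE 0.44). It was the only one of the 10 (10%) with an unadjusted p under 0.05 in edgeR, against 9.18% of all genes tested. Abcc1, an exporter of glutathione conjugates, had 345, 242, 314 and 748 counts, and Abcc5 was higher in both A5-CKO libraries (0.44, SE 0.31).

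NRF2, encoded by Nfe2l2, is the stress factor best known for driving many transferase genes. Its log2FC was 0.08 (SE 0.31), and that of its inhibitor Keap1 was -0.43 (SE 0.28), or -0.11 with total counts only. Of the 15 genes of NRF2, its partners and its other known targets, 3 were higher (20%) and 4 lower (26.7%) in both A5-CKO libraries, beside 20.3% and 23.5% of all genes. With total counts only, 7 were higher (46.7%) and 2 lower (13.3%), beside 34.8% and 10.1% of all genes. The median log2FC was 0.08, and 0.40 with total counts only, or 0.10 above that of all genes in both, and it was -0.06 without Ctrl 2 and -0.04 without A5-CKO 2. None passed the adjusted threshold in edgeR or DESeq2. Nqo1, a widely used NRF2 readout, had 136, 83, 95 and 221 counts, and the genotypes overlapped. Txnrd1 had a log2FC of 0.55 (SE 0.30) and Akr1b3 of -0.75 (SE 0.29). Akr1b3 alone of the 15 (6.67%) had an unadjusted p under 0.05 in edgeR, against 9.18% of all genes tested.

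**Figure D5:**
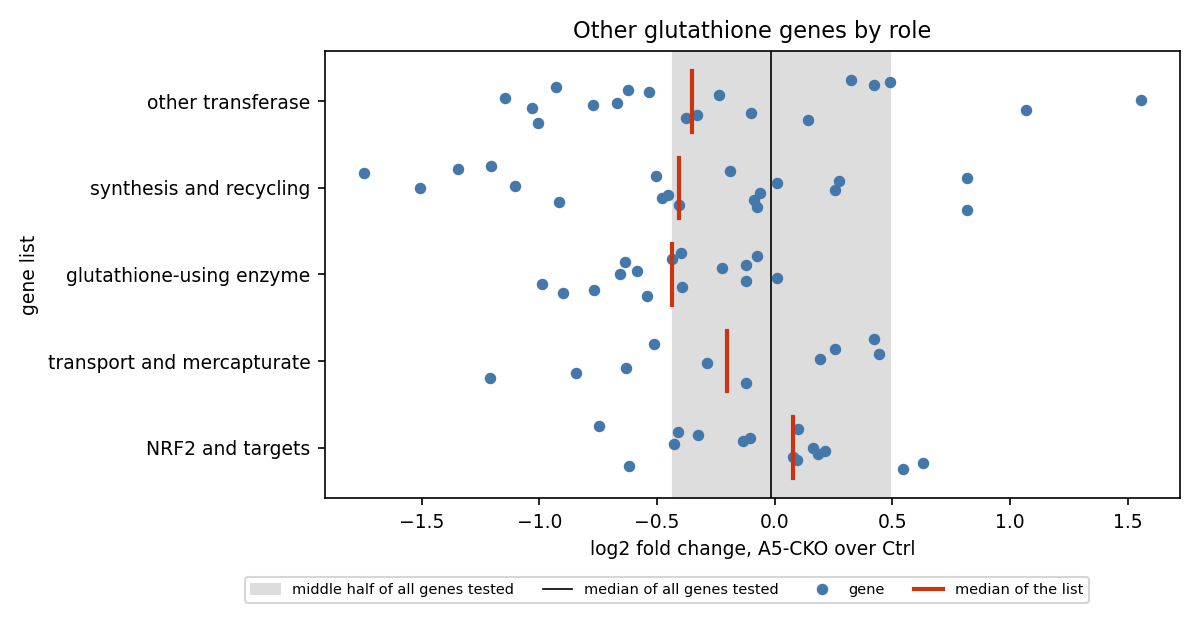
Log2FC of A5-CKO over Ctrl for the tested genes of 5 lists, 1 point per gene, with the median of each list in red. The grey band lies between the lower and upper quartile of all 16661 genes tested, and the list medians run from -0.44 for glutathione-using enzymes to 0.08 for NRF2 and its targets.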

How the data were processed

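RNA-seq of sorted AT2 cells was analysed, with 2 Ctrl and 2 A5-CKO libraries. Reads were trimmed with Trim Galore 0.6.10, cleared of ribosomal RNA, aligned with HISAT2 2.2.1 to mm10.p6, stripped of duplicates and counted with featureCounts 2.0.3 (versions from the submitters' processing notes), and the authors deposited whole-number counts per gene without normalization. The methods describe ribosomal RNA removal under the RNA-seq heading, in a paragraph that ends in peak calling, and counting under the m6A heading. The submitters' notes name featureCounts for these libraries. Both steps were assumed to hold here. No strand setting is given in the sources used here, so overlapping and antisense genes are uncertain. mm10.p6 includes fix patches, and the table holds 223 rows on them.

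Counts were fitted in edgeR 4.0.16 (R 4.3.3) by the quasi-likelihood test (glmQLFit, glmQLFTest) after filterByExpr and TMM scaling, with Benjamini-Hochberg adjustment over the 16661 of 40092 rows tested. Each SE was obtained as the absolute log2FC over the root of its F statistic. Libraries of a genotype differed well beyond counting noise (chi-square over its degrees of freedom 85.1 for Ctrl, 71.0 for A5-CKO), so each was 1 replicate. Nothing in the labels says that they are separate animals, so p-values measure only the spread between libraries, which may be technical, and intervals and floors cover counting error only. Alternatives were other scaling factors, other filters, DESeq2 1.42.0, limma voom (limma 3.58.1), a robust fit, the replicate number as a block, a correction for GC content and length (splines with 4 degrees of freedom, 15264 genes with a value, or 91.6%), summed gene copies, and leaving out each library. The correction used the values of the main-chromosome gene for a patch copy, as did CPM/kb. The fit was tested on simulated counts, where recovery of changed genes was required only at a dispersion below that of the data (0.173). The members, lists and tests were chosen with earlier results of these data known. Named genes are the members, the listed glutathione genes, the neighbours of the Gstp genes on the chromosome and the patch, the 5 tested genes closest to Gstp1_1 in centred log2 CPM (prior count 2), and, per list, those with the smallest p or the highest level. One gene that this rule would name is not reported here. Further list genes were singled out with their values in view. Coordinates and promoters are from RefSeq on GRCm38.p6, and transcripts from GENCODE M21. Transcript windows cover annotated genes of the main chromosomes and not the patch.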

Additional observations from a re-analysis of the deposited data

How the results depend on the processing

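No gene had an adjusted p under 0.05 in edgeR under the other scaling factors, the other filters, the robust fit, the GC content and length correction or the replicate block, in limma voom, with gene and patch copies summed, or with any 1 library left out (the lone library then assumed to vary like the other genotype). In these 487 to 1877 genes had an unadjusted p under 0.05, against 1530. DESeq2 called 55 of the genes edgeR tested and 59 under its own filter, with Alkbh5 at a log2 fold change of -2.01 (adjusted p = 0.0248) and -2.02 (adjusted p = 0.0224). The cause of the difference between the tools was not tested. Leaving out each library, Alkbh5 ranged from -2.63 to -1.58, Gstp1_1 from 3.44 to 4.88, the summed Gstp rows from 3.10 to 4.54, and the members' median from -0.85 to -0.54. In the main fit 6 members were separated between genotypes (20.3% of all genes were higher and 23.5% lower in both A5-CKO libraries). That count was 5 with total counts only (34.8% higher and 10.1% lower). It was 4 with the GC content and length correction, alone or with the replicate block (15.1% higher and 25.1% lower). Gsto1 ranged from -0.26 without A5-CKO 2, a change of direction, to 1.38 without Ctrl 1. The other 6 tested members kept their direction in each of these fits, save that Gstp1_1 has no row of its own where copies were summed. Replicate numbers are not said to pair animals, and deviations from the genotype means correlated at -0.35 across genes between libraries of 1 number. With the replicate block, 0 genes had an adjusted p under 0.05, Gstp1_1 had 4.19, the summed Gstp rows 3.89 and the members' median was -0.71. With the crossed pairing, chosen after seeing the data, 230 genes had an adjusted p under 0.05. With 2 libraries per genotype the spread between libraries limits most values, and the main-chromosome Gstp rows held too few counts for a fold change.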
